A study of Mus musculus with 4 samples.

Results

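The cells described here were endothelial cells of mouse heart grafts that carried transcripts of both Npr3 and Vwf. Of 53824 cells in the deposited matrix, 44626 had more than 200 detected genes and less than 20% mitochondrial unique molecular identifiers (UMIs), and 103 of these had at least 1 UMI each of Cdh5, Vwf and Npr3 and no UMI of Ptprc, Prox1, Gja5 or Mki67. The series held 2 allogeneic grafts (Balb/C hearts placed in C57BL/6J recipients) and 2 syngeneic grafts (C57BL/6J hearts in C57BL/6J recipients), all from young adult male mice and collected on day 5 after transplantation into the abdomen, where the graft is perfused through its aorta but its chambers carry little load. The cells were profiled with the 10x Chromium 3' v3 chemistry. The matrix marks 4 libraries by barcode suffix but does not say which graft each came from, so the libraries were kept apart, named by their suffix, and no allogeneic graft was compared with a syngeneic one. Because the labelled replicate grafts cannot be tied to libraries, the matrix is 1 pooled sample, no p-value is given, and every interval below covers counting error only.

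The endocardium is the endothelial lining of the heart chambers and valves, and veins are lined by endothelial cells that exchange leukocytes and plasma proteins more readily than arteries do. Npr3 encodes the clearance receptor for natriuretic peptides and is a well-known marker of adult endocardium, Vwf encodes the von Willebrand factor stored in endothelial granules and is high in veins and endocardium, and Cdh5 encodes the endothelial cadherin of cell junctions. Myocardial capillaries are marked by genes for fatty acid uptake, such as Gpihbp1 and Cd36. The 4 genes required to be absent mark leukocytes (Ptprc), lymphatic endothelium (Prox1), arteries (Gja5) and dividing cells (Mki67).

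The promoters of Npr3 and Cytl1 are shown because Npr3 defined the cells and Cytl1 was among the genes that differed most from other endothelium. Cytl1 encodes a secreted cytokine-like protein. In each of libraries 1 to 3 it was higher in Vwf cells with 3 or more Npr3 UMIs than in those with none, though not at each step between. Each line is the 250 bases before the RefSeq transcription start on GRCm38.p6, written 5′ to 3′ on the gene's own strand, for Npr3 at chr15:11907372-11907621 (minus strand) and for Cytl1 at chr5:37735269-37735518 (plus strand). Capitals mark a match to AGGAAG, a core recognised by ETS factors, or to AGATAA, a core recognised by GATA factors, searched on both strands.
Npr3: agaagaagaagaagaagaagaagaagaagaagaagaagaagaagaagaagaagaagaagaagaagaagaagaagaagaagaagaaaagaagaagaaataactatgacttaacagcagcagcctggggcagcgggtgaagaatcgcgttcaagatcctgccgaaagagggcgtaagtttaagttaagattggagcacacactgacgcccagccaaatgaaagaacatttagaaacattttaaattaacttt
Cytl1: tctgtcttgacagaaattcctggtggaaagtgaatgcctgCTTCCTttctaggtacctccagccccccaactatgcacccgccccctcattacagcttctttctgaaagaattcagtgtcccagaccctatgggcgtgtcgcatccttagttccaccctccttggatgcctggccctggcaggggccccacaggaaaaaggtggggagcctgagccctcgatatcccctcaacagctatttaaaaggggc
The Npr3 window held neither run of letters and opened with a long AAG repeat, while the Cytl1 window held the ETS letters once, on the opposite strand (CTTCCT). Among 32851 RefSeq promoter windows of this length, 29.5% held the ETS letters and 9.99% the GATA letters, so the single match is common. In GENCODE M21 on the same build, Npr3 spans positions 11839896 to 11907287 of chromosome 15, so that the RefSeq start lies just upstream of it, and Cytl1 positions 37735519 to 37739820 of chromosome 5.

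The 103 cells were spread unevenly over the libraries. Library 1 held 55, library 2 held 24, library 3 held 22 and library 4 held 2. As a share of Cdh5 cells without Ptprc they made up 1.07% in library 1 (95% Clopper-Pearson interval 0.805% to 1.39%), 0.399% in library 2 (0.256% to 0.594%), 0.453% in library 3 (0.284% to 0.684%) and 0.364% in library 4 (0.0441% to 1.31%). The interval of library 1 lay above those of libraries 2 and 3 and overlapped that of library 4, where 549 such cells were measured. The libraries as deposited totalled between 96020294 and 166079145 UMIs. The gated cells had a median of 8449, 12336.5, 10427.5 and 14104.5 UMIs in libraries 1 to 4, against 5645, 5780, 8328 and 8617 in all Cdh5 cells without Ptprc, so the gated cells of libraries 1 to 3 were more deeply sampled than their neighbours, while the 2 cells of library 4 had 1556 and 26653 UMIs. None of the 103 shared its barcode with a cell of another library, although 308 barcodes occurred in more than 1 library, and 6 of the 103 were marked as possible doublets.

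The cells were chosen by their UMIs of the gate genes, whose values are given as a description only. Of the cells past the filters, 20030 had a Cdh5 UMI, 2684 of those also had a Vwf UMI and 169 also had an Npr3 UMI. The 4 excluding genes then removed 66, of which 49 carried Prox1, 11 Ptprc, 9 Gja5 and 4 Mki67. Just inside the gate were 27 cells with exactly 1 Npr3 UMI and just outside it were 1485 Vwf cells with none. A further 20 cells had 2 Npr3 UMIs and 56 had 3 or more, with 44 as the highest value. Npr3 reached a median of 7 UMIs per cell in library 1, 2 in libraries 2 and 3, and 1 in library 4, where neither cell had more than 1. Vwf had a median of 8, 13, 5.5 and 13 UMIs per cell in libraries 1 to 4. Levels are UMIs summed over the cells of a library and scaled to 1000000 nonmitochondrial UMIs (CPM). On this scale Npr3 stood at 1042, 312, 225 and 74.6 and Vwf at 1320, 1191, 793 and 969 in libraries 1 to 4.

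**Figure D1:**
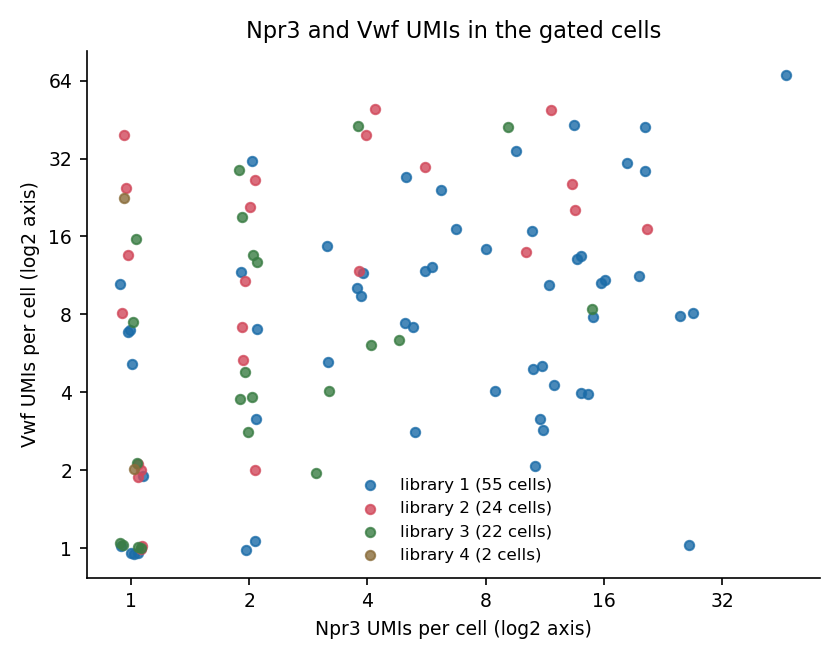
Npr3 UMIs (x axis, log2) and Vwf UMIs (y axis, log2) in each of the 103 cells, coloured by library and jittered slightly so that cells with equal counts can be seen. Library 1 supplied 40 of the 56 cells with 3 or more Npr3 UMIs, and both cells of library 4 lie at 1.

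As a background for a gate set at 1 UMI, the gate genes were counted in cells that should lack them. Among 13048 Ptprc cells without Cdh5, which had a median of 12034.5 UMIs, an Npr3 UMI was present in 0.330% and a Vwf UMI in 11.2%. The Npr3 share in these leukocytes was 2.12% in library 1, 0.650% in library 2, 0.418% in library 3 and 0.0693% in library 4. The Vwf share was highest in library 4, at 14.9%. The Vwf share in leukocytes was above the Npr3 share in each library. In Dcn-rich cells without Cdh5 or Ptprc, the share with Npr3 was 10.2%, 5.08%, 2.27% and 2.28% in libraries 1 to 4 and the share with Vwf was 2.05%, 2.34%, 3.08% and 1.83%, so that Vwf was the more frequent of the pair in library 3 only.

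The gated cells were first set against 12999 Cdh5 cells that passed the same gate but had no UMI of Npr3 or Vwf, called reference endothelial cells below. A gene was counted as higher or lower when its CPM plus 10 differed at least 2-fold. The rule fixed for this comparison required at least 50 gated cells in a library, which only library 1 met. In library 1, 319 of 7081 genes tested were higher (4.51%) and 345 were lower (4.87%). Among genes tested in libraries 1 to 3, each with at least 20 gated cells, 128 were higher in all of them (1.8%) and 96 were lower in all (1.35%). Of the 319 genes higher in library 1, 125 were called in all of libraries 1 to 3 and 274 (85.9%) had the same sign in libraries 2 and 3, beside 26.8% of all genes tested that were above the reference in both. Of the 345 lower genes, 89 were called in all 3 and 300 (87.0%) had the same sign, beside 34.4% of all genes tested. The gated cells are few, and the values of libraries 2 and 3 rest on 24 and 22 cells. In libraries 2 and 3 without library 1, 156 genes were higher and 188 were lower.

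Endocardial genes were higher as a group. Of 14 listed, 13 could be tested in library 1, where 10 were higher and 1 was lower, beside 4.51% higher and 4.87% lower among all genes. In all of libraries 1 to 3, 8 were higher, beside 1.8% of all genes tested. The list had a median log2 ratio of 2.31 in library 1, 1.96 in library 2 and 2.89 in library 3. The median over all genes tested in library 1 was close to 0. Cytl1 stood at 688, 112 and 269 CPM in the gated cells of libraries 1 to 3 and at 2.74, 0.915 and 20.7 CPM in the reference cells. Cytl1 was thus far above the reference in each of the 3 libraries, 251-fold in library 1 (95% interval 196 to 324), 122-fold in library 2 (75.6 to 198) and 13.0-fold in library 3 (10.1 to 16.4), and it was not seen in the 2 cells of library 4. Cdh11, a cadherin of mesenchymal and valve cells, stood at 392, 137 and 375 CPM against 18.5, 1.80 and 34.0 CPM. Tmem108, a transmembrane protein, stood at 224, 178 and 259 CPM against 1.96, 0.279 and 2.62 CPM. The groups did not overlap for either gene, and Tmem108 was the more even of the pair across libraries. Smoc1, a secreted matrix protein, was at 150, 109 and 163 CPM in the gated cells and at 3.12, 0.864 and 1.11 CPM in the reference. Foxc1, a forkhead factor, was at 238, 143 and 119 CPM against 43.1, 29.5 and 32.4 CPM.

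Other members of the endocardial list differed less, differed in some libraries, or rested on few cells. Nfatc1, the factor that marks endocardium during valve formation, stood at 56.0, 77.3 and 47.7 CPM in the gated cells of libraries 1 to 3 and at 41.6, 37.8 and 49.8 CPM in the reference. Its log2 ratios of 0.36, 0.87 and -0.05 stayed under the 2-fold line in every one of these libraries. Hapln1, a link protein of the embryonic cardiac matrix, was seen in only 2 of the 103 cells. Gata4, a cardiac transcription factor, was at 30.0, 22.9 and 40.9 CPM against 11.7, 5.69 and 11.8 CPM and passed the 2-fold line in libraries 2 and 3 but not in library 1, where its log2 ratio was 0.88. Wnt9b, a Wnt ligand of valve endocardium, was called higher in library 1, at 28.0, 2.86 and 157 CPM, but came from 6 cells in all, and 1 cell held 78.3% of its UMIs in library 3. Dkk3 was the list member that was lower in library 1, with a log2 ratio of -1.49.

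Venous genes were higher as a group as well. In library 1, 8 of the 10 tested were higher and none was lower, beside 4.51% higher and 4.87% lower among all genes. In all of libraries 1 to 3, 7 were higher, beside 1.8% of all genes tested. The median log2 ratio of the list was 3.02, 3.05 and 2.02 in libraries 1 to 3. Plvap, which forms the diaphragms of fenestrae and caveolae, stood at 574, 633 and 838 CPM in the gated cells and at 9.43, 18.4 and 51.2 CPM in the reference. Cpe, a carboxypeptidase, stood at 1096, 908 and 654 CPM against 48.6, 26.0 and 62.1 CPM. Both genes were high in the gated cells of every library with at least 20 of them. Nr2f2, the transcription factor that sets venous identity, was at 260, 137 and 191 CPM against 61.0, 59.4 and 49.95 CPM, a difference of 1.93, 1.09 and 1.74 on the log2 scale. Vcam1, an adhesion molecule for leukocytes, was at 1182, 2033 and 895 CPM against 111, 75.6 and 133 CPM, with 1 cell holding 61.2% of its UMIs in library 3, but at 112 CPM in the 2 gated cells of library 4 against 1185 CPM in its reference cells.

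The venous label was not borne out by every marker. Ackr1, the atypical chemokine receptor of postcapillary venules, was detected in 2 of the 103 cells, in none of the 55 of library 1 and in 1 each of libraries 2 and 3. These cells put Ackr1 at 0, 54.4 and 23.8 CPM in libraries 1 to 3, against 18.4, 44.2 and 16.6 CPM in Vwf cells without Npr3, of which 2.83%, 4.58% and 3.54% had an Ackr1 UMI. Ackr1 was thus rare in both groups, and its level in the gated cells of libraries 2 and 3 came from 1 cell each. Selp, the P-selectin stored with von Willebrand factor, was at 122, 1635 and 116 CPM in the gated cells of libraries 1 to 3, so that library 2 stood far above the others, and library 2 was also the highest in Vwf cells without Npr3, where Selp was at 146, 419 and 165 CPM. Il1r1 and Ephb4, which are listed as venous, did not reach 2-fold in any of the 3 libraries. Emcn and Plvap, which are counted in the venous list, are also made by endocardium. Because the venule marker Ackr1 was seen in only 2 cells, the cells are called Npr3 Vwf cells from here on.

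**Figure D2:**
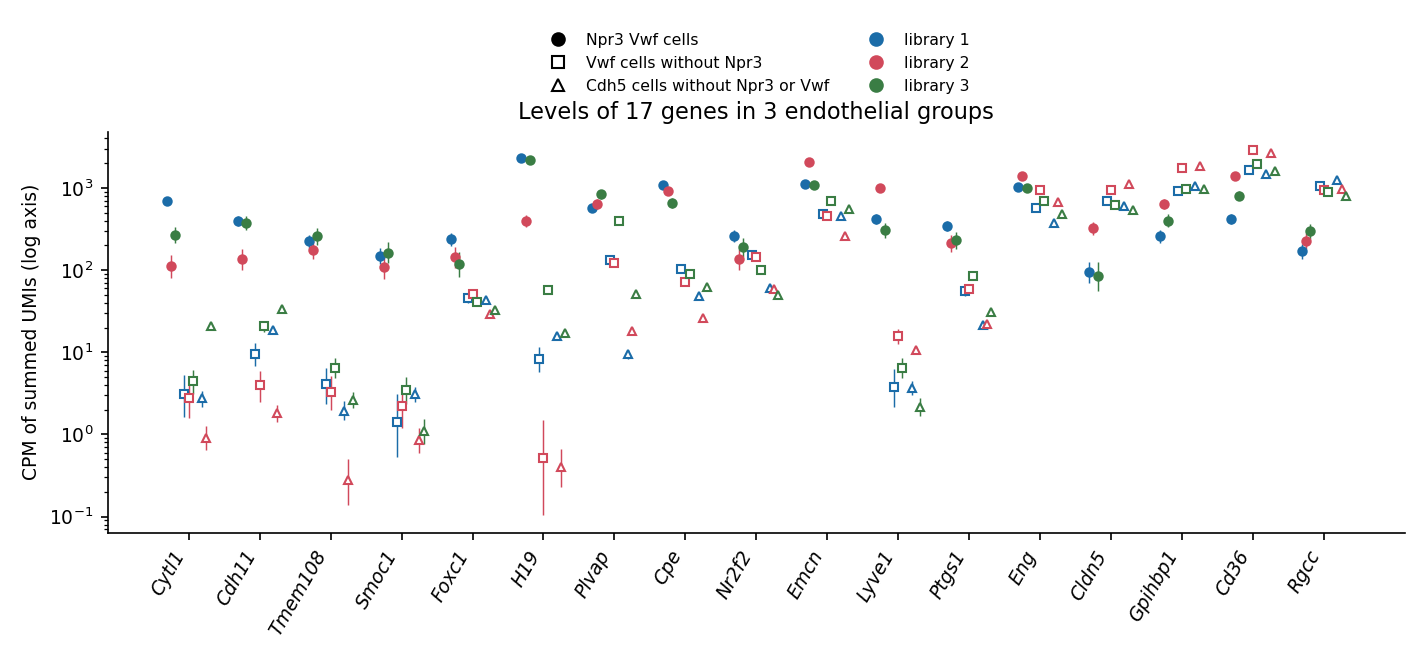
CPM of 17 genes (y axis, log scale) in libraries 1 to 3 (colours), for Npr3 Vwf cells (filled circles), Vwf cells without Npr3 (open squares) and reference endothelial cells (open triangles), with exact Poisson intervals. Cytl1, Cdh11, Tmem108, H19 and Lyve1 lie far above both comparison groups, while Gpihbp1, Rgcc and Cldn5 lie below them.

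Capillary genes were lower. In library 1, 11 of the 12 tested were lower and none was higher, beside 4.87% lower and 4.51% higher among all genes. In all of libraries 1 to 3, 6 were lower, beside 1.35% of all genes tested. The median log2 ratio was -1.83, -1.15 and -1.06 in libraries 1 to 3. Gpihbp1, which anchors lipoprotein lipase on the capillary wall, was at 256, 642 and 398 CPM in the Npr3 Vwf cells and at 1038, 1864 and 957 CPM in the reference. Rgcc, a cell cycle regulator high in capillaries, was at 170, 226 and 296 CPM against 1248, 975 and 805 CPM. Both genes were lower in each of the 3 libraries, and what remained came largely from 17 capillary-like cells described below, where Gpihbp1 was at 1717 CPM against 73.7 CPM in the other members and Rgcc at 876 CPM against 51.2 CPM. Cldn5, the claudin of tight junctions, was at 94.0, 324 and 85.1 CPM against 601, 1119 and 530 CPM, and 1 cell held 57.4% of its UMIs in library 1. Eng, an accessory receptor for TGF-beta family ligands, went the other way, at 1026, 1395 and 991 CPM against 378, 672 and 487 CPM. Of the 11 pan-endothelial genes Eng and Cldn5 were the only ones called in library 1, and Pecam1, present in 100 of the 103 cells, was at 1166, 1263 and 1110 CPM against 670, 678 and 716 CPM.

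Of 12 arterial genes tested in library 1, 2 were higher and 6 were lower, beside 4.51% higher and 4.87% lower among all genes. In all of libraries 1 to 3 these numbers were 1 and 3, beside 1.8% and 1.35% of all genes tested. Sox17, an arterial transcription factor, stood at 54.0, 74.5 and 57.9 CPM in the Npr3 Vwf cells and at 313, 215 and 201 CPM in the reference. Bmx, a kinase of arterial and endocardial cells, was higher in libraries 1 and 3, at 52.0, 8.59 and 78.3 CPM against 2.64, 1.19 and 1.48 CPM. Gja4, a connexin gene, was at 76.0, 83.1 and 119 CPM against 25.2, 34.5 and 45.8 CPM, and was higher by at least 2-fold in each library. In library 3, however, 1 cell held 77.1% of its UMIs, and the call there rested on that cell. The direction within the arterial list was thus mixed, with a median log2 ratio of -0.72, -0.88 and -0.09.

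The 20 genes with the largest ratios (CPM plus 10) in library 1 were led by H19. H19, a long noncoding RNA at positions 142575529 to 142578143 of chromosome 7, was at 2306, 395 and 2152 CPM in the Npr3 Vwf cells of libraries 1 to 3 and at 15.7, 0.406 and 16.9 CPM in the reference. Igf2, a growth factor gene in the same cluster, was at 194, 34.4 and 119 CPM against 1.37, 0.534 and 0.853 CPM. Plagl1, a zinc finger factor, was at 202, 226 and 150 CPM against 8.54, 7.80 and 9.79 CPM. In library 2, 1 cell held 84.1% of the H19 UMIs. H19 was found in 60 of the 103 cells, Plagl1 in 59 and Igf2 in 35. Igfbp5, which binds the insulin-like growth factors, stood at 4086, 896 and 5597 CPM against 104, 19.9 and 133 CPM, with 1 cell holding 35.2% of its UMIs in library 1. Beside H19, Igf2, Plagl1 and Igfbp5, the 20 were Cytl1, Lyve1, Plvap, Tmem108, Cpe, Enpp6, Mal, Cdh11, Smoc1, Fam174b, Ptgs1, Gpm6a, Hmcn1, Kank1, Lrg1 and Vcam1. Hmcn1, a large matrix protein, was at 290, 103 and 235 CPM against 18.7, 2.34 and 11.8 CPM. The 10 genes lowest in library 1 were Tnfsf9, Rgcc, Btnl9, Col8a1, Jag2, Cldn5, Ptgds, Slc26a10, Tcim and Arc.

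Lyve1, a hyaluronan receptor best known from lymphatic vessels, was at 414, 982 and 303 CPM in the Npr3 Vwf cells and at 3.70, 10.6 and 2.18 CPM in the reference. Among the other lymphatic genes, Reln was at 0 in all 4 libraries, Mmrn1 was seen in 1 cell and Pdpn in 5. Flt4, the receptor for lymphatic growth factors, was detected in 42 of the 103 cells, at 46.0, 68.7 and 85.1 CPM against 43.6, 48.8 and 49.8 CPM in the reference and 477, 237 and 315 CPM in Prox1 cells. In Prox1 cells, of which 43 of 450 also carried Npr3 and Vwf, Mmrn1 stood at 946, 394 and 573 CPM and Reln at 352, 187 and 138 CPM in libraries 1 to 3. The 5 listed lymphatic genes without a duplicated symbol summed to 468, 1063 and 392 CPM in the Npr3 Vwf cells, with Lyve1 the most abundant in each library.

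Genes of blood clotting and vascular tone followed in part. Of 11 coagulation and fibrinolysis genes tested in library 1, 5 were higher and none was lower, but only Procr was higher in all of libraries 1 to 3, beside 4.51% and 1.8% of all genes tested, and the list had a median log2 ratio of 0.56, 0.55 and 1.01 in libraries 1 to 3. Procr, the endothelial receptor of protein C, was at 48.0, 172 and 432 CPM in the Npr3 Vwf cells against 10.2, 41.7 and 20.2 CPM in the reference. In library 3, 1 cell held 94.5% of its UMIs, and the call there rested on that cell. F2r, a thrombin receptor, was at 300, 143 and 211 CPM against 88.4, 64.9 and 140 CPM, and did not reach 2-fold in library 3. Of 10 vasoactive genes tested in library 1, 4 were higher and 1 was lower, beside 4.51% higher and 4.87% lower among all genes. In all of libraries 1 to 3 these numbers were 2 and 1, beside 1.8% and 1.35% of all genes tested. Ptgs1, the constitutive cyclooxygenase, stood at 344, 212 and 232 CPM against 21.5, 22.0 and 31.1 CPM. Ece1, which activates endothelins, stood at 672, 1455 and 735 CPM against 274, 248 and 207 CPM. Of the 10 other genes of the natriuretic peptide system, 3 could be tested and none was called. Npr1, the signalling receptor of natriuretic peptides, was at 90.0, 40.1 and 61.3 CPM against 79.7, 69.4 and 55.04 CPM.

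Of 17 interferon response genes tested in library 1, none was higher and 3 were lower, 1 of them in all of libraries 1 to 3, beside 4.87% and 1.35% of all genes tested, with a median log2 ratio of -0.46, -0.66 and -0.57. Rsad2, an antiviral enzyme, was at 106, 14.3 and 91.9 CPM in the Npr3 Vwf cells against 482, 66.2 and 310 CPM in the reference. Ubd, a ubiquitin-like modifier, had no UMI in the Npr3 Vwf cells of libraries 1 to 3 and stood at 1.96, 0.127 and 0.158 CPM in the reference cells of these libraries, a level at which absence could not be told from chance sampling. In library 4 Ubd was at 224 CPM in the 2 Npr3 Vwf cells, all 6 UMIs coming from 1 of them, and at 1611 CPM in the reference. Of 4 MHC class II genes tested none was called, and their median log2 ratio was -0.13, -0.73 and -0.56 in libraries 1 to 3. Cd74, the invariant chain, was at 128, 2.86 and 47.7 CPM against 68.2, 28.1 and 72.1 CPM. In the 2 cells of library 4 the MHC class II genes summed to 7195 CPM, against 3290 CPM in its reference cells. Those 2 cells had 1556 and 26653 UMIs, so nearly all UMIs that this sum was scaled to came from 1 of them.

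The remaining lists had few genes called or were mixed in direction. Over all genes tested in library 1, 4.51% were higher and 4.87% were lower, so that 1 gene called in a list of this size is no departure from the background. Of 17 genes of Notch, BMP and TGF-beta signalling tested in library 1, 2 were higher and 3 were lower, with a median log2 ratio of 0.04, -0.17 and 0.04 in libraries 1 to 3. Of 8 genes of the valve mesenchyme transition none was called, and their median was -0.66, -0.78 and -0.78. Of 8 shear-response factors 1 was higher, of 9 leukocyte adhesion genes, a list that leaves Vcam1 and Selp to the venous list, 1 was higher and 1 was lower, and none of 9 MHC class I and peptide loading genes was called. Of 16 basement membrane and matrix genes 1 was higher and 2 were lower, and of 13 angiogenic receptors and ligands 3 were higher and 3 were lower. Of 8 chemokines and cytokines 2 were higher and 2 were lower, with a median of -0.85, -0.72 and 0.25, and none of 15 immediate early genes was called.

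**Figure D3:**
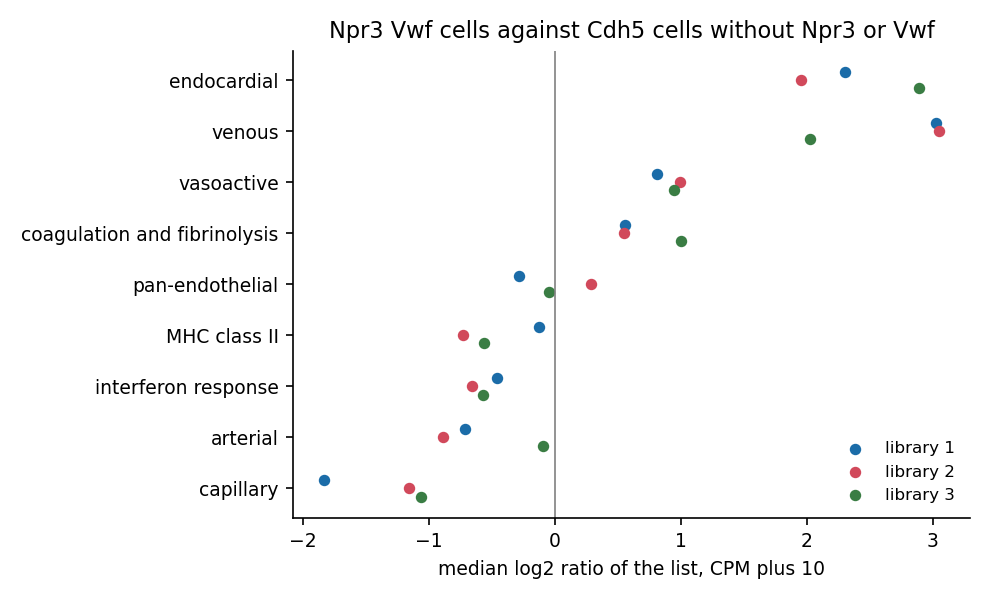
Median log2 ratio (CPM plus 10) of 9 gene lists in Npr3 Vwf cells against reference endothelial cells, with a point for each of libraries 1 to 3. The endocardial and venous lists lie between 1.96 and 3.05, and the capillary list between -1.83 and -1.06.

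Markers of other cell types were counted in the same cells. All 5 fibroblast genes were detected and summed to 7205, 3511 and 4729 CPM in the Npr3 Vwf cells of libraries 1 to 3, against 6618, 1831 and 9706 CPM in the reference. Dcn was the most abundant of them, at 3458, 3136 and 2993 CPM against 3662, 1394 and 2749 CPM, and Dcn was also present at 3324, 515 and 1606 CPM in leukocytes. In library 1 a single cell held 57.5% of the fibroblast UMIs, and without that cell the sum was 3260 CPM. In libraries 2 and 3 the cell with most held 37.5% and 40.5%, and the sums without it were 2390 and 3667 CPM. The summed fibroblast genes were thus below the reference in libraries 1 and 3 and above it in library 2 once these cells were left out (a check added after seeing the data), while the median log2 ratio of the list was -0.08, -2.25 and -0.10, with a sign opposite to the sum in library 2. Col3a1 rested on few cells, with 1 cell holding 90.9% of its UMIs in library 1. Hemoglobin and Alas2 transcripts summed to 14171, 180 and 34.0 CPM, with Hbb-bs the most abundant, and 1 cell held 96.7% of the Hbb-bs UMIs of library 1. Cardiomyocyte genes summed to 266, 28.6 and 187 CPM against 1010, 219 and 327 CPM in the reference, pericyte genes to 476, 85.9 and 528 CPM against 732, 389 and 905 CPM, and smooth muscle genes to 418, 833 and 150 CPM against 528, 990 and 1166 CPM. Macrophage genes summed to 49.99, 74.5 and 160 CPM, led by Lyz2, granulocyte genes to 23.998, 894 and 13.6 CPM, led by S100a9 in libraries 1 and 2, and T and NK genes to 0, 2.86 and 0 CPM, against 112 CPM in the 2 cells of library 4. The B cell list reached 8.59 CPM at most in these libraries, the mesothelial list 2.00 CPM and the Schwann list 27.2 CPM, and the Schwann marker Sox10 was at 0. The part of these transcripts in the results above was not tested.

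The cells were next set against Vwf cells without Npr3, which differ from them in a single gate gene. In library 1, 279 of 7075 genes tested were higher in the Npr3 Vwf cells (3.94%) and 312 were lower (4.41%), and 113 (1.6%) and 79 (1.12%) passed in all of libraries 1 to 3. The 5 largest ratios in library 1 belonged to H19, Cytl1, Lyve1, Igfbp5 and Cdh11, and the 5 smallest to Tmem252, Sema3g, Tnfsf9, Cldn5 and Arc. Cytl1 stood at 3.11, 2.75 and 4.47 CPM in Vwf cells without Npr3, and the ratio of the Npr3 Vwf cells to them was 221 in library 1 (128 to 420), 40.6 in library 2 (22.2 to 77.9) and 60.1 in library 3 (40.2 to 91.4). Plvap was less different, at 131, 122.5 and 396 CPM in Vwf cells without Npr3, with ratios of 4.36, 5.17 and 2.12. Gpihbp1 was at 903, 1766 and 957 CPM in Vwf cells without Npr3, close to its level in the reference.

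The 166 Npr3 cells without Vwf differed in another way. Against them 402 of 7262 genes tested in library 1 were higher (5.54%) and 559 were lower (7.7%), and 1.79% and 2.15% passed in all of libraries 1 to 3. Cytl1 was at 19.98, 0 and 49.9 CPM in Npr3 cells without Vwf and Tmem108 at 9.08, 1.47 and 28.8 CPM, far below the Npr3 Vwf cells. Dcn was at 12369, 3037 and 7966 CPM in them, and the 5 genes lowest in Npr3 Vwf cells against them were Mmp3, Ptx3, Tnfaip6, Cxcl5 and Hp, which are made by stromal cells. The 4 hemoglobin genes that led the other direction rest on the cell named above. Set against 872 Gja5 cells, the 5 largest ratios in library 1 were those of H19, Cdh11, Lyve1, Ptgs2 and Tmem108 and the 5 smallest those of Sema3g, Gkn3, Alpl, Fbln5 and Cox4i2, with 330 of 7198 genes higher (4.58%) and 484 lower (6.72%); the shares passing in all of libraries 1 to 3 were 1.87% and 2.39%. Cytl1 was not confined to the Npr3 Vwf cells among these groups, at 109, 25.1 and 48.4 CPM in Gja5 cells. Set against 450 Prox1 cells, including the 43 with Npr3 and Vwf (28 of them in library 1), 147 of 7273 genes were higher (2.02%) and 345 were lower (4.74%), with 0.507% and 0.916% in all of libraries 1 to 3. The 5 smallest ratios in library 1 were those of Ccl21a (1 entry of a duplicated symbol), Mmrn1, Reln, Fgl2 and Maf. All these comparisons use the same Npr3 Vwf cells.

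The number of Npr3 UMIs in a cell went along with the other genes. In Vwf cells with 0, 1, 2 and 3 or more Npr3 UMIs, over all libraries, Cytl1 stood at 3.56, 48.3, 220 and 728 CPM, and Cdh11 at 12.9, 105, 239 and 482 CPM. Within the libraries Cytl1 did not climb at each step, at 3.11, 130, 41.5 and 886 CPM in library 1, 2.75, 23.0, 22.9 and 376 CPM in library 2 and 4.47, 36.1, 608 and 301 CPM in library 3, although the last bin was above the first in each. Cdh11 climbed at each step in library 2 only, at 3.95, 61.2, 91.7 and 319 CPM. It was at 9.56, 77.9, 0 and 507 CPM in library 1 and 20.7, 152, 586 and 557 CPM in library 3, again with the last bin above the first. Over all libraries Gpihbp1 ran the other way, at 1191, 1016, 131 and 104 CPM, as did Cd36, at 2128, 1848, 437 and 231 CPM. Neither fell at each step in every library. Gpihbp1 was at 903, 1052, 311 and 85.4 CPM in library 1 and 1766, 1539, 38.2 and 205 CPM in library 2. Cd36 was at 2848, 3399, 91.7 and 296 CPM in library 2. For both genes the last bin was below the first in each of libraries 1 to 3. The capillary list summed to 23529, 22247, 13756 and 4452 CPM in library 1, 34154, 34016, 2957 and 6899 CPM in library 2 and 21436, 13461, 8820 and 2528 CPM in library 3. The lowest and highest bins kept this order in each library, while the middle bins, with 6 to 9 cells each, did not always. Median depth over all libraries was 9660, 11379, 11785.5 and 8441 UMIs in the 4 bins. Between the first and last bins it went from 8158 to 8692.5 UMIs in library 1, 9441 to 8071 in library 2 and 10402 to 5619 in library 3. The part of depth in the pattern over the bins was not tested. Cytl1 or Cdh11 was detected in 78 of the 103 cells, in 55 of the 56 with 3 or more Npr3 UMIs and in 11 of the 27 with exactly 1. Gpihbp1 or Cd36 was detected in 71 of the 103 cells, and 52 cells had a UMI of both kinds of marker. A Gpihbp1 UMI was also present in 12.5%, 46.2% and 14.9% of leukocytes in libraries 1 to 3. The part of this background in the 52 cells was not tested. Before thinning, Cytl1 was seen in 63.1% of Npr3 Vwf cells, 0.854% of reference cells and 0.330% of leukocytes. After thinning each cell to 2000 UMIs, it was seen in 44.1% of 102 Npr3 Vwf cells (41.2% in another random draw), 0.388% of 10824 reference cells and 0.0493% of 12178 leukocytes. The bins use the counts of a gate gene and are a description.

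**Figure D4:**
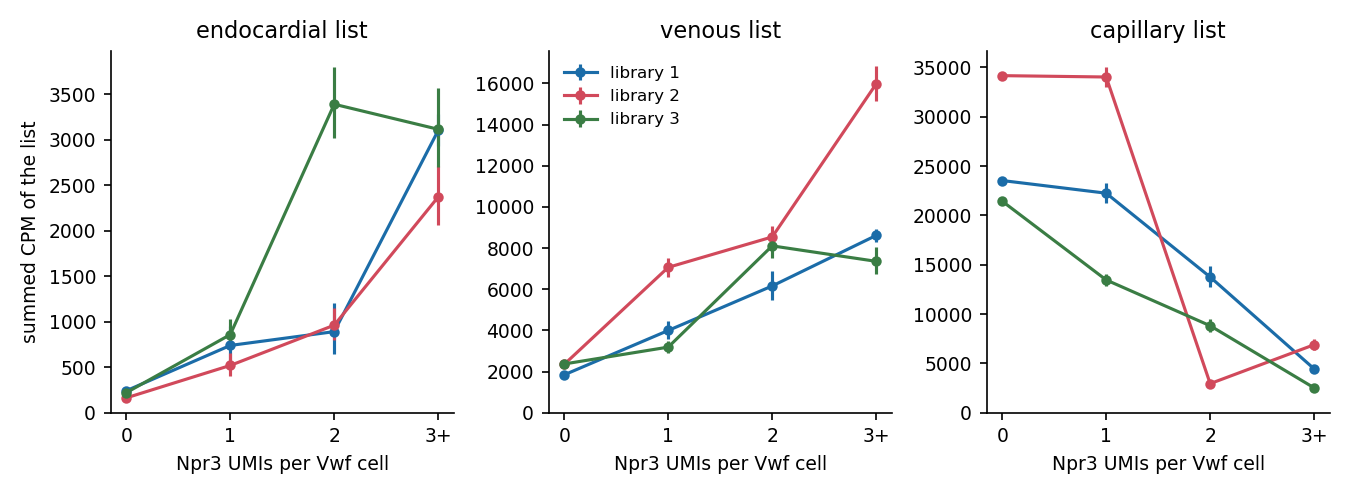
Summed CPM of the endocardial, venous and capillary lists (y axes) in Vwf cells with 0, 1, 2 and 3 or more Npr3 UMIs (x axis) in libraries 1 to 3, with exact Poisson intervals. The endocardial list ran from 243 to 3103 CPM and the capillary list from 23529 to 4452 CPM between the first and last bins of library 1.

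The 103 cells themselves fell into 3 clusters by Leiden clustering after centring on the library, of 52, 34 and 17 cells. Each of libraries 1 to 3 contributed to each cluster, with 30, 10 and 11 cells in cluster 1, 17, 9 and 7 in cluster 2, and 8, 5 and 4 in cluster 3. The clustered genes describe the clusters and test nothing. Cluster 1 was led by Col3a1, C3, Igfbp5, Eln and Hmcn1, with the endocardial list at 2903 CPM. A single cell held 95.1% of the Col3a1 UMIs and 91.9% of the C3 UMIs of cluster 1, and without that cell both were lower in it than in the other members, at 147 CPM and 46.5 CPM. Cluster 2 was led by Hbb-bs, Hba-a1, Cryab, Ptgs2 and Hbegf, kept the endocardial list at 2200 CPM, and held immediate early genes at 24062 CPM against 7973 CPM in cluster 1 and 17819 CPM in cluster 3. Ptgs2, the inducible cyclooxygenase, was seen in 30 of the 34 cells of cluster 2, whereas 1 cell held 97.7% of the Hbb-bs UMIs and another 98.5% of the Cryab UMIs. Cluster 3 was led by Ly6c1, Gpihbp1, Cd36, Timp4 and Cldn5. The capillary list summed to 35445 CPM in cluster 3, against 6151 CPM in cluster 1 and 2977 CPM in cluster 2, while the endocardial list stood at 262 CPM. With Gpihbp1, Cd36, Timp4, Rgcc, Lpl and Fabp4 of the fixed capillary markers among its 10 leading genes, cluster 3 was capillary-like. Its cells had a median of 1 Npr3 UMI and 2 Vwf UMIs, against 5 and 9.5 in cluster 1, and only 1 of its 17 cells had a Cytl1 UMI. That cell had 12 Npr3 UMIs and an endocardial list of 1562 CPM, the highest of the cluster. Clusters 1 and 2 were left unnamed.

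**Figure D5:**
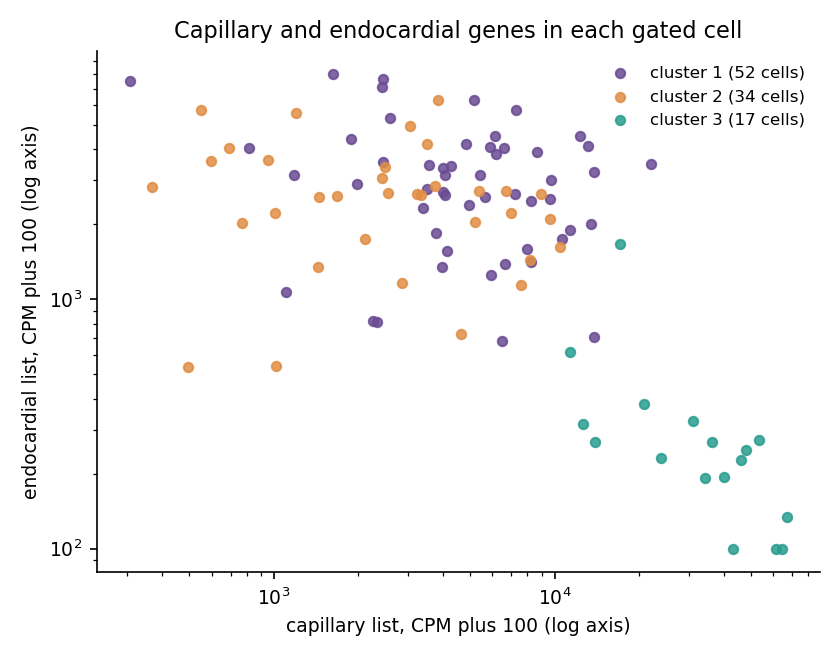
Capillary list (x axis) and endocardial list (y axis) in CPM plus 100, both on log scales, in each of the 103 cells, coloured by Leiden cluster. The 17 cells of cluster 3 have a capillary list of 11265 CPM or more and only 6 of the cells of clusters 1 and 2 reach that level.

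Some genes differed widely between the libraries within the Npr3 Vwf cells. The 10 with the largest ratio between the highest and lowest of libraries 1 to 3 were Hbb-bs, Hba-a1, Hba-a2, Col3a1, Cryab, Lcn2, Sprr1a, Col1a1, Hbb-bt and C3. Lcn2, an iron-carrier binding protein of inflamed tissue, was at 124, 2830 and 17.0 CPM, and the reference cells showed the same order at 11.1, 531 and 2.40 CPM. Cryab, a small heat shock protein, was at 76.0, 45.8 and 5938 CPM against 108, 101 and 134 CPM in the reference, and 1 cell held 98.0% of its UMIs in library 3. Ptgs2 was at 388, 2096 and 432 CPM against 47.0, 149 and 61.3 CPM, and 1 cell held 76.4% of its UMIs in library 3. Abundance itself was led by Malat1, Tpt1, Gm42418, Hbb-bs, Mgp, Eef1a1, Apoe, Tmsb4x, Fabp4 and Rplp1 in library 1. Mgp, an inhibitor of calcification, was at 7929, 7833 and 7681 CPM, a narrow range, against 3424, 1025 and 6149 CPM in the reference.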

How the data were processed

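The authors sequenced 4 grafts with 10x Chromium 3' v3 chemistry and, per the labels' tool list, used CASAVA 1.8, Cell Ranger and Seurat with the mm10 genome; the deposited matrix holds UMI counts, not normalized, of all cells together. Its header gives software version 3.0.0, and the study's methods name Cell Ranger with Ensembl annotation. No column of per-sample values was left unmapped beyond the pooled matrix (0 columns).

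Members and gene lists were chosen with earlier results of these data known. Levels are UMIs summed over the cells of a library per 1000000 nonmitochondrial UMIs (CPM), with exact Poisson intervals; shares have 95% Clopper-Pearson intervals. Genes at 20 CPM or more in either group were tested, after adding 10 CPM, at 2-fold. Named genes were the gate genes, list members, the 20 highest and 10 lowest ratios, the 10 most abundant, 5 per direction against other groups and 5 leading genes per cluster; for differences between libraries the minimum of 50 cells was lowered to 20 after seeing the counts. Possible doublets were marked at 5% by simulated doublets and kept. Clusters used Leiden (leidenalg 0.10.2; 1000 variable genes, 10 components, 20 neighbours, resolution 0.5). On simulated data for library 1, 86% of 2.5-fold and 99% of 4-fold changes were called, with 0.121% of unchanged genes. The simulated counts were Poisson draws without variation between cells, and the changed genes were at 50 CPM or more in the reference. In the real cells 1 cell can hold most UMIs of a gene, so 0.121% is not the rate of false calls there. Python 3.11.15, numpy 2.4.6, scipy 1.17.1 and scikit-learn 1.9.0 were used. Ccl21a, which has a duplicated symbol, and Cd99, which was not found, are without values in the lists. Some genes are not reported here.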

Additional observations from a re-analysis of the deposited data

Results flagged for a closer look

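Outside the cells described, 9 cells met the marker gate but had 20% or more mitochondrial UMIs, a signal in cells that no comparison used. Of these, 7 were in library 1 and 1 each in libraries 2 and 3; their median was 25.5% mitochondrial UMIs and 2440 UMIs, and the lowest had 20.1%, just above the highest member at 19.4%.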

How the results depend on the processing

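No paired analysis was possible because the 4 libraries cannot be matched to the numbered grafts. The 103 cells and their 0.621% share became 73 and 0.440% with at least 2 UMIs of Npr3 and Vwf, 86 and 0.775% in cells of 3000 to 20000 UMIs, and, with cells carrying Prox1 kept (chosen after seeing the data), 146 and 0.881%. Leaving out 1 library at a time gave 48 to 101 cells and 0.420% to 0.748%; the lowest of each is without library 1. Under the 50-cell minimum, without library 1, at 2 UMIs and under 10% mitochondrial UMIs no library had 50 members, so no ratio was computed. Higher and lower genes numbered 122 and 102 with a pseudocount of 50 CPM; 527 were lower with 1 CPM and 221 with a 50 CPM minimum. With at least 20 cells per library (chosen after seeing the data) they numbered 128 and 96, and 156 and 188 when library 1 was also left out.

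In the medians that follow, without library 1 means with the 20-cell minimum. The endocardial median was 3.003 with a pseudocount of 1 CPM and 1.23 with 50 CPM. The venous median was 1.86 with 50 CPM, 2.37 with libraries pooled, 2.39 with 20 cells and 2.33 without library 1. The capillary median was -1.29 pooled, -1.27 with 20 cells and -1.06 without library 1. The MHC class II median turned from -0.13 to 0.0423 in cells of 3000 to 20000 UMIs and 0.00645 pooled. It was -0.54 as a mean over cells, -0.48 with 20 cells and -0.75 without library 1. The interferon median was -0.76 without doublets, -0.63 as a mean over cells, -0.61 with 20 cells, -0.72 without library 1 and -0.74 with Prox1 cells kept. The coagulation median was 0.97 as a mean over cells, 0.99 with 20 cells and 0.87 without library 1. The cause was not tested. The 20 highest and 10 lowest genes of library 1 were repeated, none changed direction in 420 repeats, and 95 of these moved by more than the SD over libraries 1 to 3. Many of these repeats could not change a direction. Leaving out library 2, 3 or 4 left the ratios of library 1 as they were, and a pseudocount cannot change a sign within 1 library. The genes were also chosen by their library 1 ratios, so the unchanged directions are no test of them. Library 4, with 2 cells, supports no ratio.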

Other observations

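Most of the triple-positive cells that the gate removed carried Prox1. Among 450 Prox1 cells, 43 also had Npr3 and Vwf, of which 28, 4 and 11 were in libraries 1 to 3. In these cells Npr3 stood at 1051, 233 and 107 CPM in libraries 1 to 3, Cytl1 at 612, 87.5 and 148 CPM, Cdh11 at 683, 146 and 413 CPM and Plvap at 820, 729 and 819 CPM. Library 1 was thus the highest in Npr3, Cytl1 and Cdh11, while Plvap was even. The lymphatic gene Mmrn1 was at 0, 58.3 and 18.4 CPM and Flt4 at 58.4, 292 and 59.0 CPM. Lyve1 was at 388, 1371 and 81.1 CPM. Among 872 Gja5 cells, 8 had Npr3 and Vwf, with Npr3 at 69.0, 43.1 and 32.0 CPM in libraries 1 to 3, and Cytl1 was seen in library 1 only, at 104 CPM.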
